A study of Nicotiana benthamiana with 8 samples.

Results

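The cytoskeleton and secretory vesicle trafficking genes described here are the 31 contigs, of the 3305 in the deposited table, whose name in the annotation against Viridiplantae proteins contained kinesin, tubulin, actin-, microtubule, myosin, formin-like, villin, exocyst, syntaxin, vesicle, coatomer, clathrin, Ras-related protein or transport protein Sec. They were chosen by name alone, in any letter case, and fell into 9 families. The cytoskeleton accounted for 12 contigs (1 kinesin, 1 tubulin, 2 microtubule-associated proteins, 6 actin and actin-binding proteins, and 2 contigs named after myosin) and trafficking for 19 (2 exocyst subunits, 8 SNAREs and vesicle-associated proteins, 3 coat and translocon proteins, and 6 Rab GTPases). No listed contig carried villin or coatomer in its name.

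Leaves of 4-week-old Nicotiana benthamiana, a relative of tobacco widely used for transient expression, were infiltrated with Agrobacterium tumefaciens GV3101-pMP90. The MdMYB68 leaves received a strain with the apple transcription factor MdMYB68 (MD08G1076200) behind the 35S promoter in the p103 vector. By the methods of the study MdMYB68 was fused to GFP. The control leaves received a strain with the p103-empty vector. Leaves of both groups also received a strain that carried the silencing suppressor p19 of a plant virus in pBIN61, so that no group was free of Agrobacterium or of p19. The comparison asks which leaf transcripts change in abundance when MdMYB68, a candidate regulator of suberin deposition in russeted apples, is expressed outside apple. Each group held 4 biological replicates, each a pool of 3 plants with 4 leaves per plant, and by the methods of the study the leaves were taken 4 days past infiltration. The 35S promoter is active in most leaf cells, and the RNA came from whole leaves, so that fewer cells of a type and less RNA per cell cannot be told apart. Reads were mapped to N. benthamiana contigs, and the MdMYB68 transcript itself was not analysed here.

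Plant cells carry wall material to their surface in secretory vesicles that leave the Golgi and the trans-Golgi network. Rab GTPases mark each membrane compartment, coats such as clathrin shape the vesicles and retrieve membrane, the exocyst tethers secretory vesicles at the plasma membrane, and SNAREs such as the syntaxins fuse them with it. Actin filaments, which formins nucleate and actin-depolymerizing factors disassemble, are the tracks on which plant myosins move organelles, while cortical microtubules guide the cellulose-synthesising complexes and kinesins work mainly in the spindle and the phragmoplast. Suberin, the waterproof wall polymer of root endodermis and fruit skin periderm, is laid down at the plasma membrane side of the wall.

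Between 31244291 and 34080202 reads were mapped in the MdMYB68 libraries, against 29371282 to 32279582 in the empty vector libraries. The listed contigs took 17.5 to 18.7% of them in MdMYB68 leaves and 6.92 to 8.76% in empty vector leaves. Levels are given as RPKM, in which reads are scaled to contig length and to library size, here with all mapped reads of the library as the denominator. The 58 listed contigs of the leaf mesophyll marker list (chlorophyll a-b binding proteins, photosystem subunits and the Rubisco small subunit) summed to 8079 to 12600 RPKM in MdMYB68 leaves, against 35485 to 51474 RPKM in empty vector leaves, and all 58 were lower in MdMYB68 leaves. All 11 dividing cell markers, chosen by words in the name such as cyclin- and histone H, were higher. They summed to 107.7 to 122.1 RPKM in MdMYB68 leaves and 24.8 to 25.6 RPKM in empty vector leaves. So were all 10 suberizing cell markers, contigs with the symbol CYP86A1, CYP86B1 or GPAT5 (179 to 222 RPKM, against 6.44 to 8.94 RPKM). So were all 13 markers of xylem-type walls (308 to 344 RPKM, against 18.6 to 20.3 RPKM). These were contigs named cellulose synthase A catalytic or with the symbol IRX9, IRX12 or GUT1. Several contigs of a list can share a symbol and are then not separate markers. With TMM factors, explained below, only 3 of the 11 dividing cell markers kept a positive log2 fold change, against 9 of the 10 suberizing and all 13 xylem-type markers. Of all listed contigs 85.9% were higher in MdMYB68 leaves and 57.9% were positive with TMM. The table holds only contigs selected to differ at least 4-fold, as described below, so a clear separation of the groups was set by the selection. The part of these cell type markers in the values below was not tested.

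The table was made by selection on these same libraries, and all 3305 contigs differed between the groups at least 4-fold and, after rounding, by at least 5 in the deposited mean RPKM. In 100% of the contigs, members included, the libraries of the 2 groups did not overlap. Because of this selection the tests below describe the size and regularity of a difference and are no independent evidence that there is one. Total gene reads were compared with the quasi-likelihood test of edgeR, with all mapped reads as library size and Benjamini-Hochberg adjustment over the 3305 contigs, and a contig was called at an adjusted p under 0.001. By this rule 95.9% of the listed contigs were called, 83.4% as higher and 12.4% as lower in MdMYB68 leaves. Of the 31 members 28 were called, 26 as higher and 2 as lower, which is near that background. Taken singly, each member reached p = 0.0286 on log2(RPKM + 1) in an exact permutation test (two-sided), the smallest p that 4 libraries against 4 allow.

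As a whole the cytoskeleton and trafficking contigs were more abundant in MdMYB68 leaves on the scale of all mapped reads (14 of the 27 higher ones turned negative with TMM, below), where their summed level was 430.0 ± 21.6 RPKM, against 62.2 ± 2.20 RPKM in empty vector leaves (SD, n = 4 each). Their range was 413 to 462 RPKM in MdMYB68 libraries and 59.2 to 63.9 RPKM in empty vector libraries. All 3305 listed contigs summed to 136646 ± 3949 RPKM in MdMYB68 leaves, against 74730 ± 10159 RPKM in empty vector leaves. Cytoskeleton and trafficking contigs that differed less than 4-fold are not listed, so these sums cover contigs selected for a difference and are no independent evidence of one. Cytoskeleton contigs summed to 176.6 ± 10.2 RPKM in MdMYB68 leaves, against 23.9 ± 0.54 RPKM in empty vector leaves, and trafficking contigs to 253 ± 13.3 RPKM, against 38.4 ± 1.73 RPKM. Member by member, 27 were higher and 4 lower in MdMYB68 leaves, with a median ratio of 6.77-fold (2.76 on the log2 scale) by mean RPKM, beside 10.2-fold (3.35) over all listed contigs. In these medians a contig with no read in a group is set at its bound.

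**Figure D1:**
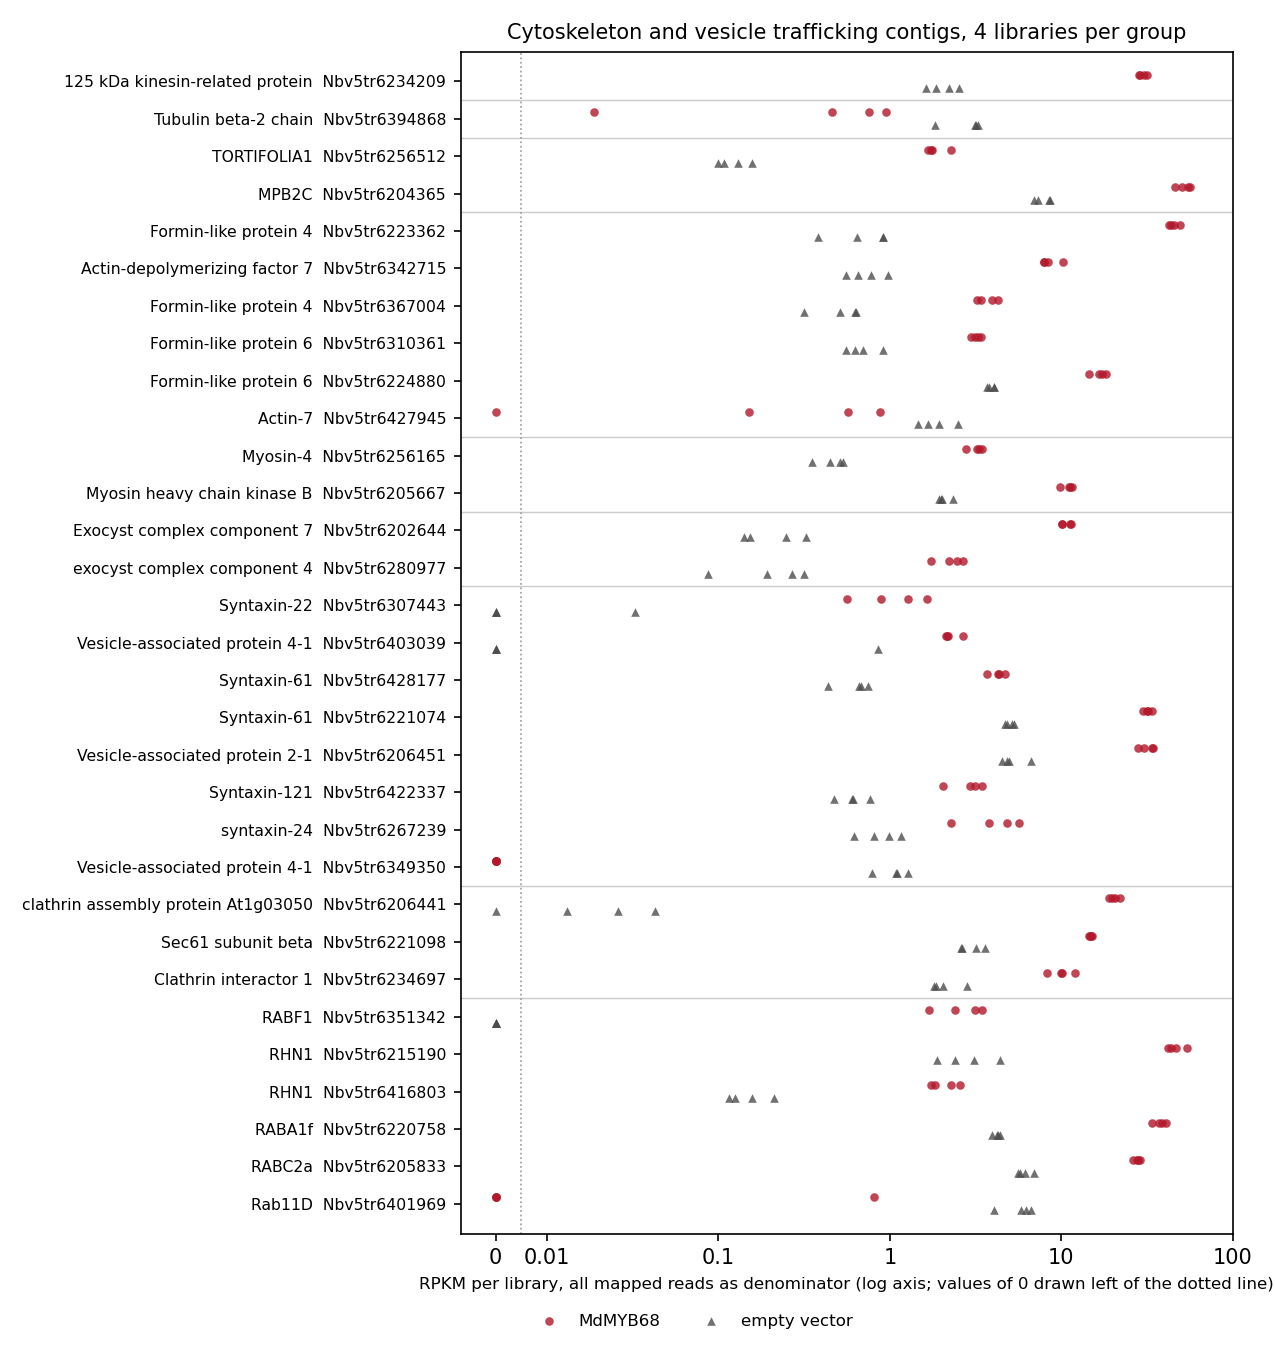
Level of each of the 31 contigs in every library, in RPKM on a log axis, with circles for the 4 MdMYB68 libraries and triangles for the 4 empty vector libraries. Lines part the 9 families and values of 0 stand left of the dotted line. In 27 contigs all MdMYB68 circles lie right of the empty vector triangles, and in 4 (tubulin beta-2 chain, actin-7, 1 contig of vesicle-associated protein 4-1 and Rab11D) all lie left, on the scale of all mapped reads, and 14 of the 27 have a negative fold change with TMM.

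These directions depend on the scale. TMM, which assumes that most contigs in the table do not change, lowered the log2 fold change of the median listed contig by 2.95, which equals a factor of 7.71. Since 85.9% of the table is higher in MdMYB68 leaves, TMM values are best read as changes relative to the typical listed contig. On that relative scale 13 of the 31 members stayed positive, beside 57.9% of all listed contigs, and the count was also 13, beside 58.6%, with the size factors of DESeq2. At the same threshold 11 members were called with TMM, 5 as higher and 6 as lower, beside 47.7%, 29.2% and 18.5% of the listed contigs, and 17 with DESeq2, 6 as higher and 11 as lower, beside 59.8%, 37.1% and 22.7%. The TMM value is therefore given beside the main members below, and where it turns the direction this is stated.

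Among microtubule genes the motor and both associated proteins were higher in MdMYB68 leaves, although 1 of the associated proteins turned negative with TMM, and the tubulin contig was lower, called only with some alternatives. The contig of the 125 kDa kinesin-related protein (Nbv5tr6234209, 3478 bases, symbol AT3G45850), a bipolar kinesin known in tobacco from the phragmoplast, stood at 29.0, 30.6, 31.6 and 28.4 RPKM in the MdMYB68 libraries and at 2.55, 1.64, 1.85 and 2.21 RPKM in the empty vector libraries. It was 14.5-fold higher in MdMYB68 leaves (log2 fold change 3.86 ± 0.15 SE, adjusted p = 3.8e-09 in edgeR), and 0.91 with TMM. TORTIFOLIA1 in Arabidopsis binds cortical microtubules and keeps organs growing straight. The contig of that name (Nbv5tr6256512) had 1.76, 1.73, 2.29 and 1.66 RPKM in MdMYB68 leaves. In empty vector leaves it had 0.157, 0.130, 0.107 and 0.10 RPKM. Its Arabidopsis hit was a hypothetical protein, so the name rests on the annotation against Viridiplantae proteins, and 46.1% of its reads were uniquely placed. The groups lay far apart at low levels, and the log2 fold change was 3.90 ± 0.27, or 0.96 with TMM, where it was not called (adjusted p = 0.0048 in edgeR).

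The other microtubule-associated contig (Nbv5tr6204365) carried the symbol MPB2C, a protein found in tobacco to bind the movement protein of tobamoviruses at microtubules. It was the most abundant of the 31 contigs over the 8 libraries, at 55.3, 50.8, 56.4 and 46.1 RPKM in MdMYB68 leaves and 6.94, 7.30, 8.64 and 8.44 RPKM in empty vector leaves. The difference was 6.66-fold (log2 fold change 2.74 ± 0.12), but it turned to -0.22 with TMM, slightly under the typical listed contig.

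Tubulin itself, the building block of microtubules, appeared as a single contig of the beta-2 chain (Nbv5tr6394868), with few reads and none of them uniquely placed. It had 40, 26, 49 and 1 reads in the MdMYB68 libraries and 89, 166, 163 and 170 reads in the empty vector libraries. Its level was 5.21-fold lower in MdMYB68 leaves, with a log2 fold change of -2.38 ± 0.65 that was not called (adjusted p = 0.0048 in edgeR), and -5.35 with TMM, where it was called as lower (adjusted p = 4.8e-05). The 89 reads of 1 empty vector library stood apart from the rest of that group, while the MdMYB68 libraries were spread widely, down to 1 read. Without MdMYB68 replicate 4, the library with 1 read, the contig was called as lower (-1.98, adjusted p = 5.1e-04 in edgeR, over alternatives from 2.2e-13 to 0.023).

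Among actin genes the 4 formin contigs and the actin-depolymerizing factor were higher in MdMYB68 leaves, although 3 of the formin contigs turned negative with TMM, and the contig of actin itself was lower, called with TMM but not with all mapped reads. Formin-like protein 4 (Nbv5tr6223362, 2886 bases, symbol FH8) showed the largest difference of the cytoskeleton contigs, at 43.7, 42.8, 49.4 and 45.6 RPKM in MdMYB68 leaves and 0.908, 0.910, 0.379 and 0.644 RPKM in empty vector leaves. The ratio was 63.8-fold (log2 fold change 5.99 ± 0.25, adjusted p = 5.5e-09 in edgeR), and it stayed at 3.04 with TMM. A contig of the same name and symbol from the alternate set (Nbv5tr6367004) was 7.13-fold higher, at 3.24 to 4.28 RPKM in MdMYB68 leaves and 0.317 to 0.631 RPKM in empty vector leaves, but only 6.12% of its reads were uniquely placed and its TMM value was -0.11. With the reads of both formin-like 4 contigs summed, the log2 fold change was 5.27 ± 0.18.

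The 2 contigs of formin-like protein 6 differed less. The longer one (Nbv5tr6224880, 5465 bases) had 14.6 to 18.2 RPKM in MdMYB68 leaves and 3.68 to 4.07 RPKM in empty vector leaves, 4.29-fold higher, and the other (Nbv5tr6310361, symbol FH6) 2.98 to 3.42 RPKM, against 0.555 to 0.907 RPKM, 4.59-fold higher. Both turned negative with TMM, at -0.86 and -0.75. None of the reads of Nbv5tr6310361 was uniquely placed, and the Arabidopsis hit of Nbv5tr6224880 was formin-like protein 13, so the shared name need not mean 1 gene. Actin-depolymerizing factor 7 (Nbv5tr6342715), whose Arabidopsis namesake is best known from pollen, had 7.93 to 10.3 RPKM in MdMYB68 leaves and 0.555 to 0.977 RPKM in empty vector leaves. It rose 11.7-fold (log2 fold change 3.53 ± 0.25), and by 0.58 with TMM, where it was not called (adjusted p = 0.049 in edgeR).

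Actin-7 (Nbv5tr6427945, Arabidopsis hit actin 2 7), in Arabidopsis an actin of vegetative tissue, was represented by a short contig of 614 bases. It had 17, 0, 11 and 3 reads in MdMYB68 leaves and 45, 33, 36 and 29 reads in empty vector leaves, with no overlap. The log2 fold change was -2.25 ± 0.62 and was not called (adjusted p = 0.0050 in edgeR), and it was -1.64 with the uniquely placed reads, which were 8 over the MdMYB68 libraries and 25 over the empty vector libraries. With TMM it was -5.19 and called as lower (adjusted p = 4.8e-05 in edgeR).

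Of the contigs named after myosin, only 1 is a motor protein by name. Myosin-4 (Nbv5tr6256165, 6017 bases), which moves along actin filaments, had 2.77 to 3.46 RPKM in MdMYB68 leaves and 0.350 to 0.535 RPKM in empty vector leaves, 6.92-fold higher. Only 3.67% of its reads were uniquely placed. Myosin heavy chain kinase B (Nbv5tr6205667) takes its name from a kinase of the amoeba Dictyostelium. It had 9.87 to 11.5 RPKM in MdMYB68 leaves and 1.94 to 2.35 RPKM in empty vector leaves, 5.29-fold higher. Both were called (log2 fold changes 2.79 ± 0.18 and 2.40 ± 0.13) and both turned negative with TMM, at -0.16 and -0.55.

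**Figure D2:**
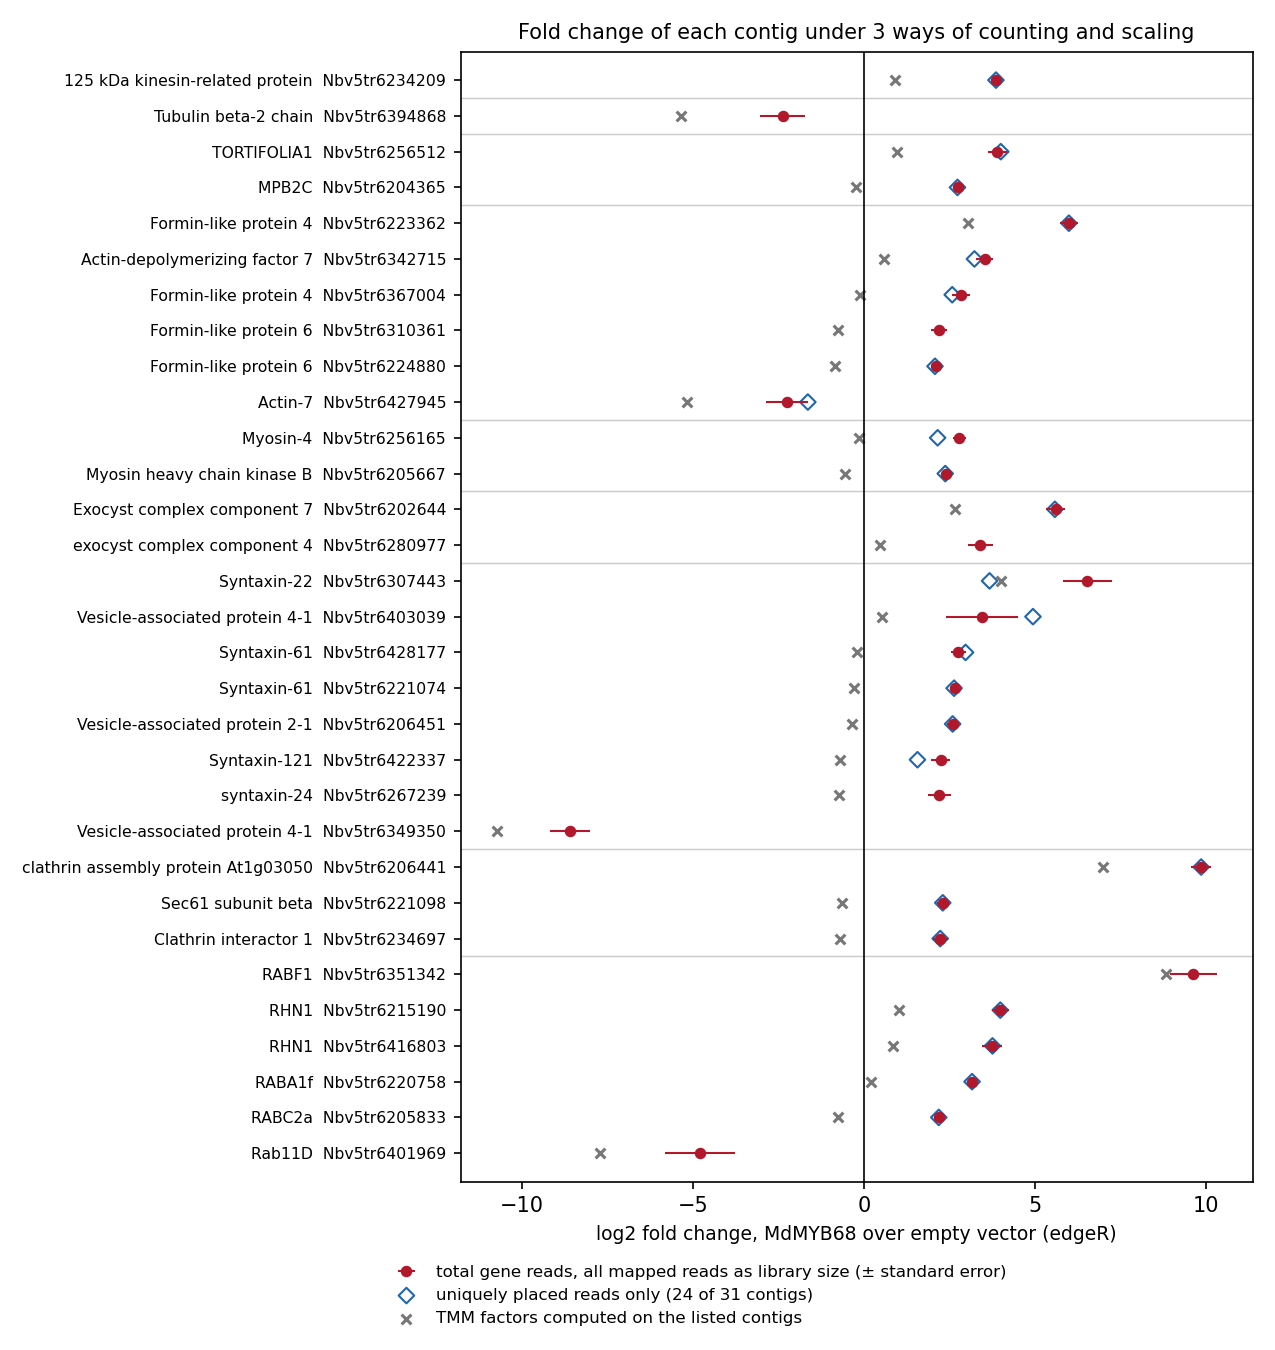
Fold change of each contig on the log2 scale, MdMYB68 over empty vector, from edgeR with all mapped reads as library size (red circles, bars are standard errors), with uniquely placed reads only (open diamonds, 24 contigs) and with TMM factors (crosses). The diamonds sit close to the circles for most contigs, while every cross lies left of its circle and 14 cross zero to the negative side.

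In the secretory pathway, both exocyst subunits were called as higher in MdMYB68 leaves, and with TMM only the first of them was. Exocyst complex component 7 (Nbv5tr6202644), with an annotation as EXO70A1-like, belongs to the subunit family that binds the target membrane, and in Arabidopsis EXO70A1 is needed to position the Casparian strip of the root endodermis. It had 11.2, 10.1, 11.4 and 10.1 RPKM in MdMYB68 leaves and 0.153, 0.141, 0.249 and 0.325 RPKM in empty vector leaves. The ratio was 49.4-fold (log2 fold change 5.60 ± 0.28, adjusted p = 1.6e-08 in edgeR, 2.66 with TMM), and 93.3% of its reads were uniquely placed. Component 4, or SEC8 (Nbv5tr6280977), had 2.22, 2.69, 1.73 and 2.45 RPKM, against 0.270, 0.192, 0.314 and 0.087 RPKM, a 10.5-fold difference (log2 fold change 3.40 ± 0.37, and 0.45 with TMM, where the adjusted p was 0.28 in edgeR). None of the SEC8 reads was uniquely placed.

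A clathrin adaptor showed the largest ratio of the members with reads in both groups. The putative clathrin assembly protein At1g03050 (Nbv5tr6206441), an adaptor of the AP180 kind that links clathrin to the membrane, had 20.7, 19.1, 22.01 and 19.8 RPKM in MdMYB68 leaves. In empty vector leaves it had 3, 1, 0 and 2 reads, against 6290 reads over the 4 MdMYB68 libraries, and all of them were uniquely placed. The transcript was thus close to undetected without MdMYB68, and the ratio of 998-fold (log2 fold change 9.86 ± 0.29, adjusted p = 7.0e-10 in edgeR, 6.99 with TMM) rests on these 6 reads. Clathrin interactor 1 (Nbv5tr6234697), an epsin-like adaptor, was 4.71-fold higher, at 8.21, 12.0, 10.0 and 10.1 RPKM in MdMYB68 leaves and 2.06, 1.86, 1.81 and 2.84 RPKM in empty vector leaves. The Sec61 beta subunit (Nbv5tr6221098), part of the channel through which secreted proteins enter the endoplasmic reticulum, was 4.94-fold higher, at 14.5 to 15.0 RPKM, against 2.60 to 3.57 RPKM. Clathrin interactor 1 and Sec61 beta turned negative with TMM, at -0.72 and -0.65, unlike the assembly protein.

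Of the Rab GTPases, the 3 contigs of the endosomal Rab5 class were called as higher in MdMYB68 leaves. With TMM their fold changes stayed positive, but RABF1 alone was called (adjusted p = 4.4e-04 in edgeR), against 0.0025 and 0.040 for the RHN1 contigs. RHN1 (Nbv5tr6215190, symbol RHA1), a Rab of the Rab5 class at late endosomes, had 42.1, 46.7, 54.1 and 43.8 RPKM in MdMYB68 leaves and 4.40, 1.89, 2.40 and 3.10 RPKM in empty vector leaves. It was 15.8-fold higher (log2 fold change 3.98 ± 0.25, adjusted p = 7.7e-08 in edgeR, 1.03 with TMM). The alternate contig of the same name (Nbv5tr6416803) was 13.8-fold higher at a lower level, 1.73 to 2.56 RPKM in MdMYB68 leaves and 0.116 to 0.212 RPKM in empty vector leaves, and all reads of both RHN1 contigs were uniquely placed. RABF1 (Nbv5tr6351342, symbol ARA6), a plant-specific member of the same class, had 63, 96, 115 and 130 reads in MdMYB68 leaves and no read in any empty vector library. With 3 reads taken as the floor of the empty vector group, it was at least 129-fold higher, but none of its reads was uniquely placed.

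The Rab11 class, which works at the trans-Golgi network, held a contig that was higher and another that was lower in MdMYB68 leaves. RABA1f (Nbv5tr6220758) had 38.7, 33.8, 40.8 and 37.2 RPKM in MdMYB68 leaves and 4.28, 4.20, 3.96 and 4.39 RPKM in empty vector leaves, 8.94-fold higher (log2 fold change 3.16 ± 0.11). With TMM its value was 0.20 and was not called (adjusted p = 0.072 in edgeR). Rab11D (Nbv5tr6401969, symbol RABA4a) had 0, 0, 0 and 27 reads in MdMYB68 leaves and 123, 207, 208 and 195 reads in empty vector leaves. It was 28.2-fold lower in MdMYB68 leaves (log2 fold change -4.79 ± 1.02, adjusted p = 9.6e-04 in edgeR), on reads of which none was uniquely placed. Without MdMYB68 replicate 4, the library that held its 27 reads, it was at least 192-fold lower, while leaving out any other library raised the adjusted p to between 0.0011 and 0.0037, past the threshold. RABC2a (Nbv5tr6205833), of the Rab18 class, had 26.1 to 28.9 RPKM, against 5.61 to 6.94 RPKM, 4.54-fold higher, and turned to -0.77 with TMM.

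SNAREs and vesicle-associated proteins were the largest family, with 8 contigs, and a median of 7.13% of their reads was uniquely placed. Syntaxin-22 (Nbv5tr6307443), a SNARE that in Arabidopsis acts at the vacuole, had 18, 44, 28 and 54 reads in MdMYB68 leaves and 0, 0, 1 and 0 reads in empty vector leaves. The ratio of reads, scaled to library size, was 137.9 with a 95% counting interval of 24.4 to 5485, which covers counting error only, and 4.14% of the reads were uniquely placed. With those few reads alone the difference was no longer called (adjusted p = 0.048 in edgeR, at the end of a range from 1.3e-08 over all alternatives). Nor was it called with TMM (log2 fold change 4.02, adjusted p = 0.0068 in edgeR) or with the size factors of DESeq2 (adjusted p = 0.0016 in DESeq2). The 2 contigs named Syntaxin-61 share their name with a SNARE of the trans-Golgi network in Arabidopsis. Nbv5tr6221074 was 6.34-fold higher in MdMYB68 leaves (29.9 to 33.7 RPKM, against 4.71 to 5.34 RPKM). Nbv5tr6428177 was 6.77-fold higher (3.70 to 4.71 RPKM, against 0.434 to 0.743 RPKM). Of the reads of these contigs 92.6% and 94.7% were uniquely placed, and both turned negative with TMM (-0.29 and -0.19). Both carried the symbol AT1G27700. The Arabidopsis hit of Nbv5tr6428177 was a syntaxin/t-SNARE family protein, but that of Nbv5tr6221074 was an uncharacterized protein. Neither the symbol nor the hits name syntaxin-61, so the name of both contigs rests on the annotation against Viridiplantae proteins.

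Syntaxin-121 (Nbv5tr6422337), a SNARE of the plasma membrane in Arabidopsis, had 2.04, 2.96, 3.47 and 3.13 RPKM in MdMYB68 leaves and 0.768, 0.470, 0.599 and 0.606 RPKM in empty vector leaves. It was 4.75-fold higher (log2 fold change 2.24 ± 0.27), with 1 uniquely placed read in all 8 libraries. The putative syntaxin-24 (Nbv5tr6267239) was 4.62-fold higher, at 2.28 to 5.67 RPKM, against 0.615 to 1.16 RPKM, with no uniquely placed read. Its other annotation is that of tobacco HIN1, a harpin-induced protein that is not a syntaxin. Both turned negative with TMM, at -0.70 and -0.74.

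The vesicle-associated proteins belong to a family of endoplasmic reticulum proteins that hold this membrane to others. Vesicle-associated protein 2-1 (Nbv5tr6206451) had 33.98, 27.9, 34.2 and 30.4 RPKM in MdMYB68 leaves and 4.52, 4.98, 6.63 and 4.85 RPKM in empty vector leaves. It was 6.03-fold higher (log2 fold change 2.59 ± 0.16), though -0.36 with TMM, and every read was uniquely placed.

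Vesicle-associated protein 4-1 was listed as 2 contigs, both with the symbol MAMI, that went opposite ways. The contig Nbv5tr6403039 had 100, 110, 124 and 103 reads in MdMYB68 leaves and 37, 0, 0 and 0 reads in empty vector leaves, while Nbv5tr6349350 had no read in any MdMYB68 library and 33, 50, 47 and 59 reads in the empty vector libraries. In every library but empty vector replicate 1, the reads therefore stood on only 1 of the contigs. The first was 10.8-fold higher without being called (log2 fold change 3.45 ± 1.05, adjusted p = 0.0087 in edgeR), and at least 106-fold higher once empty vector replicate 1 was left out. The second was called as lower, at least 65.4-fold (adjusted p = 3.6e-06 in edgeR). With the reads of both contigs summed, the counts were 100, 110, 124 and 103 in MdMYB68 leaves and 70, 50, 47 and 59 in empty vector leaves, 1.85-fold higher in MdMYB68 leaves after scaling to library size, with a log2 fold change of 0.88 ± 0.23 (adjusted p = 0.0038 in edgeR) and an exact permutation p of 0.0286. The uniquely placed reads of Nbv5tr6403039 were 47 over the MdMYB68 libraries and 1 over the empty vector libraries, and Nbv5tr6349350 had none. With uniquely placed reads Nbv5tr6403039 was called as higher (log2 fold change 4.94, adjusted p = 7.8e-05 in edgeR). It was also called with limma on log2(RPKM + 1) of the deposited RPKM, which is scaled to the contig's own set (adjusted p = 2.9e-04 in limma). With TMM its value was 0.52 (adjusted p = 0.66 in edgeR).

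**Figure D3:**
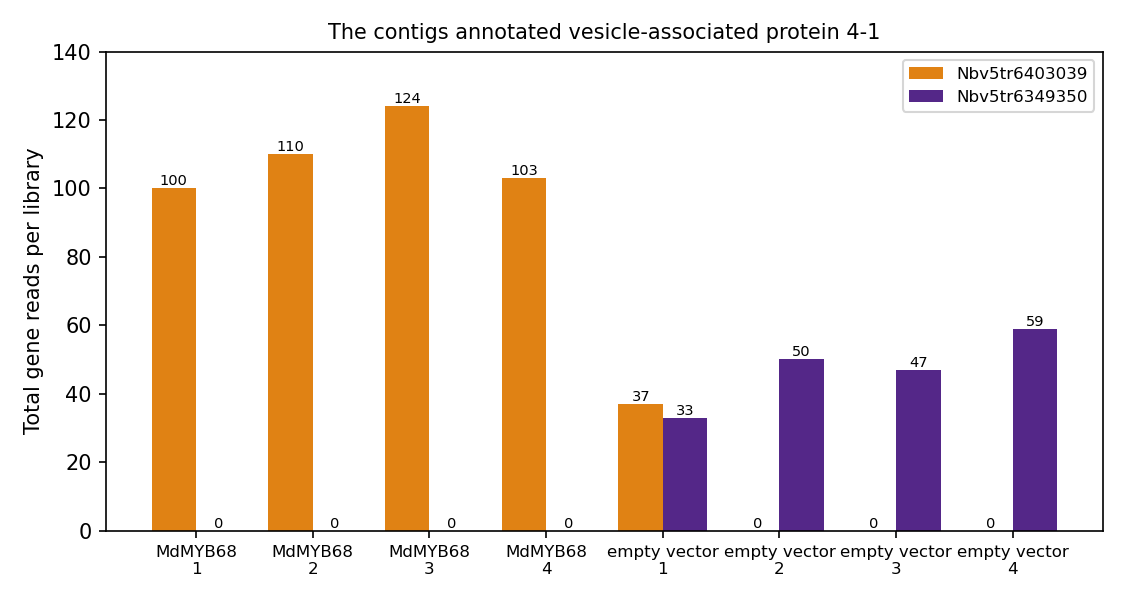
Total gene reads of the contigs annotated as vesicle-associated protein 4-1 in each of the 8 libraries, MdMYB68 on the left and empty vector on the right. The MdMYB68 libraries have 100 to 124 reads on Nbv5tr6403039 and none on Nbv5tr6349350, and 3 of the 4 empty vector libraries have the reverse, with 47 to 59 reads on Nbv5tr6349350.

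In the members, as in the whole table, how surely a read belongs to its contig differed between the parts of the reference. The reference held primary and alternate contigs, and the deposited RPKM of each set has its own total. All 14 primary members were higher in MdMYB68 leaves and called, with all reads and with uniquely placed reads, and a median of 99.9% of their reads was uniquely placed. Of the 17 alternate members 13 were higher and 4 lower, and a median of 3.67% of their reads was uniquely placed. Over all listed contigs the median was 99.3% for primary and 12.5% for alternate contigs. Of all 1831 listed primary contigs 1828 were called, so that a call of all 14 is the background share. The primary set had 1642 contigs higher and 189 lower, and the alternate set 1197 higher and 277 lower. All 4 members that were lower in MdMYB68 leaves were alternate contigs, and 3 of them had no uniquely placed read. In total 7 members had none, 4 of them higher and 3 lower, beside 398 of the 3305 listed contigs, 308 higher and 90 lower. With uniquely placed reads 21 of the remaining 24 members were called as higher and 0 as lower. Of the 2907 listed contigs that had such reads, 80.3% and 9.91% were called so (90.2% in either direction). Actin-7, the only lower member with such reads, had an adjusted p of 0.033 in edgeR, at the end of a range from 6.1e-11 over all its alternatives. How reads that match several contigs were shared out is not given in the sources used here.

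**Figure D4:**
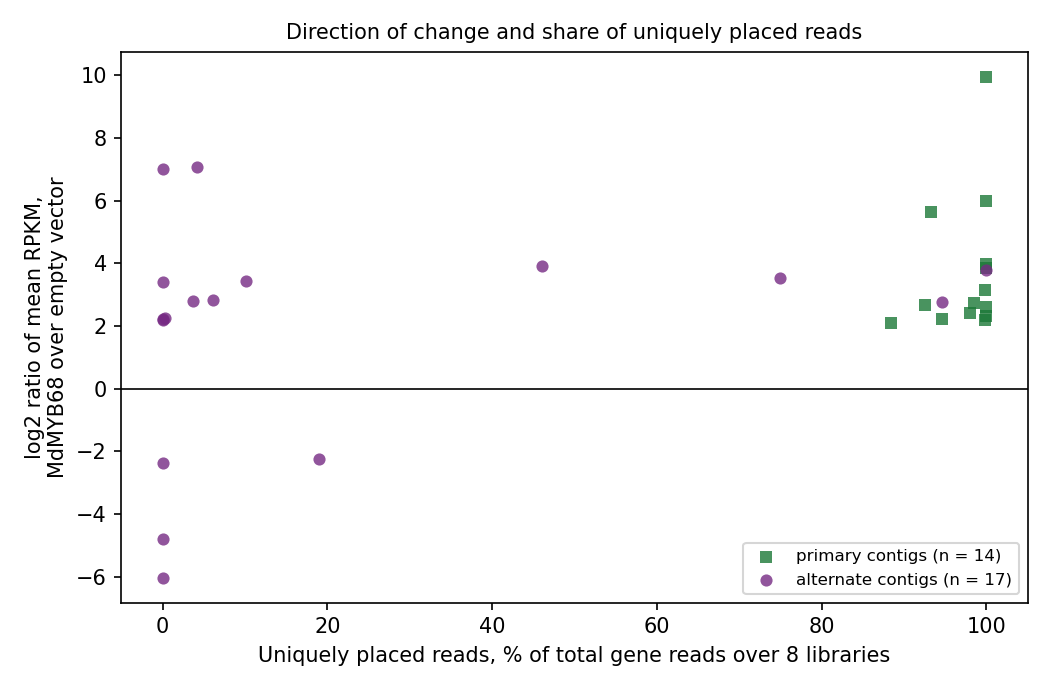
Ratio of mean RPKM, MdMYB68 over empty vector, on the log2 scale, against the share of each contig's reads that were uniquely placed, for 14 primary contigs (squares) and 17 alternate contigs (circles), on the scale of all mapped reads. Contigs with no read in a group are drawn at their bound. The 4 contigs below zero are alternate contigs with 0 to 18.97% uniquely placed reads, and 14 of those above zero turn negative with TMM.

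The alternate contigs also entered the table at lower abundance. The authors' RPKM divides by the reads mapped to a contig's own set, and all mapped reads exceeded those of the alternate set 5.90-fold and those of the primary set 1.20-fold, so that the same RPKM difference corresponds to fewer reads per base in an alternate contig. On the common scale the alternate members had a median of 2.29 RPKM in MdMYB68 leaves and 0.611 RPKM in empty vector leaves, and the primary members 28.8 RPKM and 2.97 RPKM. Of the summed level, 387 ± 21.3 RPKM in MdMYB68 leaves and 45.5 ± 1.93 RPKM in empty vector leaves came from the primary members.

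Outside the 31 members, 34 listed contigs had an annotation from a wider list of cytoskeleton and trafficking names (among them annexins, dynamins, ARF regulators, p24 cargo receptors, IQ-domain proteins, katanin, fimbrin and vacuolar sorting proteins). Of these 30 were higher and 4 lower in MdMYB68 leaves, 27 and 3 of them called, with a median ratio of 10.3-fold, and 19 of the 34 stayed positive with TMM. These values are near those of all listed contigs, of which 83.4% were called as higher and 12.4% as lower, with a median of 10.2-fold and 57.9% positive with TMM. An annexin, of a family of calcium-dependent membrane-binding proteins (Nbv5tr6235112, named RJ4, symbol ANNAT8), was the most abundant, at 867 ± 111.0 RPKM in MdMYB68 leaves and 0.575 ± 0.25 RPKM in empty vector leaves (SD, n = 4 each), and its TMM value was 7.59. Dynamin-related protein 4C was again a name with contigs on both sides, 33.98-fold higher for Nbv5tr6207851 and 4.45-fold lower for Nbv5tr6224349, and here nearly all reads of both were uniquely placed. Of the 4 IQ-domain protein contigs, whose family binds calmodulin and microtubules, 1 was higher and 3 were lower in MdMYB68 leaves. IQD13 was higher (Nbv5tr6279359, log2 fold change 3.37 ± 0.52, 0.42 with TMM), and IQD5 (Nbv5tr6378616, -5.25 ± 0.76) and both IQD22 contigs were lower (Nbv5tr6371358, -4.83 ± 0.62, and Nbv5tr6251768, -3.53 ± 1.00, the last not called, adjusted p = 0.0058 in edgeR). Of the IQD5 reads 2.49% were uniquely placed, and of the other 3 contigs none.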

How the data were processed

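The authors trimmed paired-end reads and mapped them in CLC Genomics Workbench to the N. benthamiana transcriptome (primary and alternate contigs). They deposited counts (total gene reads and uniquely placed reads, not normalized) and RPKM, scaled to the reads of a contig's own set, for the 3305 contigs they had selected. The table also holds the authors' fold changes and p-values, which were not used. Here all mapped reads per library (29371282 to 34080202) were recovered from reads, contig size and RPKM and used as library sizes, with normalization factors of 1 and no covariates, in edgeR 4.0.16 (R 4.3.3). A standard error is the log2 fold change divided by the square root of F. Alternatives used TMM, DESeq2 1.42.0, limma 3.58.1 on log2(RPKM + 1) or log2(RPKM + 0.1), uniquely placed reads and other library totals. Others used a mean of at least 10 reads, a threshold of 0.05, a replicate block and each library left out. The limma fits took the deposited RPKM, scaled to the reads of a contig's own set, not RPKM from all mapped reads. Summing same-named contigs was added after the data were seen. Scripts were tested on simulated counts.

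The members and lists were chosen with earlier results of these data known. The rule for named contigs (in each family the largest rise, the largest fall and the most abundant, and every member of families of 3 or fewer) gave 19, and the other 12 were named after their values were seen. No contig sequence was used here. Some contigs of the wider list are counted but not reported by name here. p-values measure the spread between pools of leaves, and floors and intervals cover counting error only.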

Additional observations from a re-analysis of the deposited data

Results flagged for a closer look

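Of 60 groups of 4 libraries with any spread, 6 held a library far from the other 3. A group with reads in only 1 library is always marked by this rule, whatever the count. This holds below for Nbv5tr6403039 and syntaxin-22 in the empty vector group and for Rab11D in the MdMYB68 group. The number marked was therefore not set against a chance rate. TORTIFOLIA1 (Nbv5tr6256512) stood at 2.29 RPKM in MdMYB68 replicate 3, against 1.66 to 1.76 RPKM in the other MdMYB68 libraries. The same library was high for vesicle-associated protein 4-1 (Nbv5tr6403039), at 2.68 RPKM, against 2.13 to 2.18 RPKM. In the empty vector group that contig had 0.851 RPKM (37 reads) in replicate 1 and no read in the other libraries, and syntaxin-22 (Nbv5tr6307443) had 0.0328 RPKM (1 read) in replicate 3 and none elsewhere. Tubulin beta-2 (Nbv5tr6394868) had 1.83 RPKM in empty vector replicate 1, against 3.13 to 3.26 RPKM in the other empty vector libraries. Rab11D (Nbv5tr6401969) had 0.807 RPKM (27 reads) in MdMYB68 replicate 4 and no read in the other MdMYB68 libraries. These 5 contigs are all alternate contigs, with 0 to 46.1% uniquely placed reads.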

How the results depend on the processing

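Scaling had the largest effect. The 28 called members became 11 with TMM (5 higher, 6 lower) and 17 with the size factors of DESeq2 (6 higher, 11 lower), against 26 higher and 2 lower with all mapped reads. The log2 fold change turned negative with TMM and with DESeq2 for MPB2C (-0.22 and -0.19), formin-like 4 Nbv5tr6367004 (-0.11 and -0.086), formin-like 6 Nbv5tr6310361 (-0.75 and -0.72) and Nbv5tr6224880 (-0.86 and -0.83), myosin-4 (-0.16 and -0.13), myosin heavy chain kinase B (-0.55 and -0.53), syntaxin-61 Nbv5tr6428177 (-0.19 and -0.16) and Nbv5tr6221074 (-0.29 and -0.26), vesicle-associated protein 2-1 (-0.36 and -0.33), syntaxin-121 (-0.70 and -0.68), syntaxin-24 (-0.74 and -0.72), Sec61 beta (-0.65 and -0.62), clathrin interactor 1 (-0.72 and -0.69) and RABC2a (-0.77 and -0.74). Most of the table is higher in MdMYB68 leaves, and both methods centre on it. Vesicle-associated protein 4-1 Nbv5tr6349350 turned to 0.88 when its reads were summed with the other contig of that name. The count of members called as lower was 0 with uniquely placed reads, 1 with library totals less the listed contigs, 4 at a threshold of 0.05 and 1 to 3 with a library left out, over which the total was 27 to 29. A mean of at least 10 reads, limma, DESeq2 with fixed totals and totals of the reference set left the total between 28 and 29.

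The labels give both groups replicate numbers 1 to 4, but same-numbered libraries did not deviate together (correlations -0.069, -0.049, -0.0046 and -0.012 across 3305 contigs). A replicate block left 23 members called, beside 79.1% of all listed contigs, and 0 as lower, where the 4 lower members had adjusted p from 0.0022 to 0.023 in edgeR and so all an unadjusted p under 0.05. The 5 calls lost under the block were syntaxin-121, syntaxin-24, vesicle-associated protein 4-1 Nbv5tr6349350, RABF1 and Rab11D, which have 0 or 1 uniquely placed reads.

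Depth limits the low contigs most: the empty vector values of RABF1, syntaxin-22 and the clathrin assembly protein rest on 0, 1 and 6 reads.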
